A study of Mus musculus with 8 samples.

Results

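Transcripts of complement components and regulators were followed across 4 states of mouse hepatic stellate cells. The rule named 9 gene symbols, and 8 of them had a row among the 14162 genes of the deposited table: C1qa, C1qb, C1qc, C2, C3, C4b, Cfb and Serping1. The symbol C1s had no row and was skipped. RefSeq lists C1s as an older name of C1s1, and C1s1 is described among the other complement genes. All 8 members passed the filter on low values, as did 13150 genes in all. Their values in the quiescent libraries alone would have carried them past it, so passing says nothing about the other groups.

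The series held 8 libraries of total RNA, 2 for each group, and was made to narrow down likely targets of miR-15a. By their status labels the cells were quiescent, activated, activated and given miR-15a, or activated and given a control microRNA. Hepatic stellate cells store vitamin A in the resting liver and turn into matrix-producing myofibroblasts on activation. The labels name C57BL/6J mice, an inbred laboratory strain, and SCID mice, which lack mature lymphocytes, but tie neither strain to a library. Ages, the way cells were activated and the dose and time of the microRNAs are not given in the sources used here. Whether a group's pair of libraries stems from different mice or cultures is not stated, so the p-values reflect the spread between those libraries, which may be technical.

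Complement is a set of plasma and surface proteins that tags microbes, immune complexes and dying cells. In the classical pathway C1q binds the target and activates the proteases C1r and C1s, which cut C4 and C2 to build an enzyme that splits C3. In the alternative pathway C3 and factor B build a related enzyme, and C1 inhibitor, the product of Serping1, shuts down C1r and C1s. Hepatocytes make most circulating complement proteins, while the C1q chains are made mainly by macrophages, in the liver by Kupffer cells.

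The microRNA under study is shown in lower case with its seed, bases 2 to 8, in capitals (RefSeq, GRCm38.p6). It comes from chromosome 14, 61632075 to 61632096, minus strand. Relatives with the same seed are shown beside it to mark what the family shares.
mmu-miR-15a-5p: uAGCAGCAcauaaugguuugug
mmu-miR-15b-5p: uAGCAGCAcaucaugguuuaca
mmu-miR-16-5p: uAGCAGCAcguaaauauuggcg
The complement of that seed, TGCTGCT, was sought in every gene's longest 3′ UTR (GENCODE M21; its assembly, GRCm38, is that of mm10). None of the 8 members carried it, against 23.9% of the 12527 genes with an annotated 3′ UTR. The members' 3′ UTRs were short, from 43 bases in C3 to 522 in Serping1, and 3′ UTR length was not matched between the members and those genes. No member had a match in any other annotated 3′ UTR either.

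The C1q genes lie side by side on chromosome 4, minus strand: C1qb at 136880129 to 136886187, C1qc at 136889804 to 136893065 and C1qa at 136895917 to 136898803. On chromosome 17, minus strand, C4b lies at 34728380 to 34743882, Cfb at 34856374 to 34862518 and C2 at 34862604 to 34898265, all within the major histocompatibility complex. C3 lies farther along chromosome 17, at 57203970 to 57228136, and Serping1 on chromosome 2 at 84765387 to 84775444, both on the minus strand. A gene model that joins Cfb and C2, Gm20547, shares 79.5% of the annotated exon bases of Cfb and 42.8% of those of C2. How the authors' counting split reads among the 3 is not given in the sources used here, so values of Cfb and C2 are uncertain in that respect. The neighbouring gene C4a is a near-identical copy of C4b and had no row in the table, so C4b may include its reads.

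Promoters are printed for the C1q genes and C3 that RefSeq's table held (GRCm38.p6), because the C1q genes moved together and C3 moved apart from them. Each runs 5′ to 3′ from 250 bases before to 50 after the start, with motif matches in capitals. C1qb is at chr4:136886151-136886450, C1qc at chr4:136892865-136893164 and C3 at chr17:57228087-57228386, all on the minus strand. The table had no entry for C1qa, C2, C4b, Cfb or Serping1.
C1qb: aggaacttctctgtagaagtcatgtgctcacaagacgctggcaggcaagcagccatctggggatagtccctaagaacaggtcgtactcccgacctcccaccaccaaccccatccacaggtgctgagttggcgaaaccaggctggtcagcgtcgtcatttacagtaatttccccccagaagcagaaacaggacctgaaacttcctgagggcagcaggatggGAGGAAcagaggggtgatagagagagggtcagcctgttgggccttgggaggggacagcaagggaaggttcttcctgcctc
C1qc: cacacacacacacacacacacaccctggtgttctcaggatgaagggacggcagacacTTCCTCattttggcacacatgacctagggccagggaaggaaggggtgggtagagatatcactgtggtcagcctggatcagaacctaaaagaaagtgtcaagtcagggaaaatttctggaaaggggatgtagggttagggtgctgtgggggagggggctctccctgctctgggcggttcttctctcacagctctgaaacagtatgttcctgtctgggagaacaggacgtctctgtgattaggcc
C3: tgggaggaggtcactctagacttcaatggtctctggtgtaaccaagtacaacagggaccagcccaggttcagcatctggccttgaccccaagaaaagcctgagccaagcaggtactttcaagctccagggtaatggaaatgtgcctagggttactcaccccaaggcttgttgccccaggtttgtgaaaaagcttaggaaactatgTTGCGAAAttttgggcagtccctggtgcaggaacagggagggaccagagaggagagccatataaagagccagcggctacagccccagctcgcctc
Motifs were sought on both strands, and none of those found overlapped another. GAGGAA, the core bound by the myeloid factor PU.1, was found once in C1qb, 30 bases before the start, and once in C1qc, 193 bases before it on the other strand. It occurs in 28.3% of all 32851 promoters of that length. TTGCNNAA, a form of the C/EBP site, was found once in C3, 45 bases before the start, and is in 10.8% of promoters. GAAANNGAAA, the interferon response element core, which 3.44% of promoters hold, was not in these windows. Such matches are descriptions of the letters alone.

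The deposited values were treated as normalized scores, since all 8 libraries held the same 910 distinct whole numbers and totals 0.409% apart, so the depth of each library is unknown. Replicate libraries correlated at r = 0.986 to 0.99 across genes. The quiescent libraries were not stellate cells alone: 18 macrophage markers summed to 159201 to 185302 there, 1779 to 1903 in activated libraries, 2093 to 2407 with the control microRNA and 12238 to 13802 with miR-15a. The 20 endothelial markers summed to 210258 to 281520, 1386 to 1603, 2053 to 2614 and 13737 to 13869 in the same order. These sums rest on few genes. In activated libraries Eng (622 and 646) and Ptprb (596 and 537) made up most of the endothelial sum. Lyz2 (936 and 940) was the largest part of the macrophage sum there. Stab2 stood at 125636 in quiescent library a and 58193 in quiescent library b. No measured marker of either list was at 0 in both libraries of a group, but many were near the floor. In activated libraries 4 of 18 macrophage and 9 of 20 endothelial markers had a mean under 10. With the control microRNA 2 of each list did, and none did in quiescent or miR-15a libraries. Of 20 stellate and mesenchymal markers 16 were measured, and they summed to 23041 to 24816 in quiescent and 401591 to 403900 in activated libraries, while Lrat, Dpt, Lhx2 and Gfap had no row. The stellate and mesenchymal sum also rests on few genes: Col1a2 and Acta2 stood at the table's maximum of 125636 in both activated libraries. Of the 16 markers 8 rose and 8 fell from quiescent to activated cells, with a median of 0.16. Reln, a marker of resting stellate cells, went from 7724 and 8724 to 14 and 22. The groups also differed in animals. Xist, the X inactivation transcript, stood at 8724 in both quiescent libraries against 169 and 21 in activated libraries. The Y-linked Ddx3y was at 44 and 40 against 2606 and 2570. Cell makeup, animal and cell state therefore cannot be told apart in the comparison of activated with quiescent cells. In bulk RNA, fewer cells of a type and less RNA per cell cannot be told apart either.

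Every complement member was far lower in activated than in quiescent cells, a comparison in which cell makeup and animals also differed. The largest fold change was that of C4b and the smallest that of Serping1. All 8 members fell, where 34.1% of tested genes were called lower, and their median log2 fold change was -6.31 against 0.21 over all genes tested. Fold changes are differences of log2(value + 5), which understates the change of low genes, and calls were made below an adjusted p of 0.05 (limma, Benjamini-Hochberg over 13150 genes).

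The C1q chains had the highest quiescent levels per transcript length among the members. C1qa, which encodes the A chain, was at 20504 in both quiescent libraries, 294 and 230 in activated cells, 364 and 379 with the control microRNA and 2133 and 2462 with miR-15a. Its quiescent libraries were tied on a coarse step of the shared values, where the next value up is 24099. The groups did not overlap, with quiescent cells highest, miR-15a next and the remaining groups lowest. From quiescent to activated cells the log2 value of C1qa fell by 6.27, with an SE of 0.12 and an adjusted p of 7.6e-09 (limma).

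C1qb, the B chain, was at 7286 and 7720 in quiescent cells, 78 and 48 in activated cells, 88 and 93 with the control microRNA and 788 and 870 with miR-15a. It fell by 6.82 from quiescent to activated cells (SE 0.19, adjusted p = 3.9e-08). C1qc, the C chain, was at 12566 in both quiescent libraries, 232 and 181 in activated cells, 272 and 278 with the control microRNA and 1716 and 1486 with miR-15a, and fell by 5.90. The order of groups was the same for the 3 chains.

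**Figure D1:**
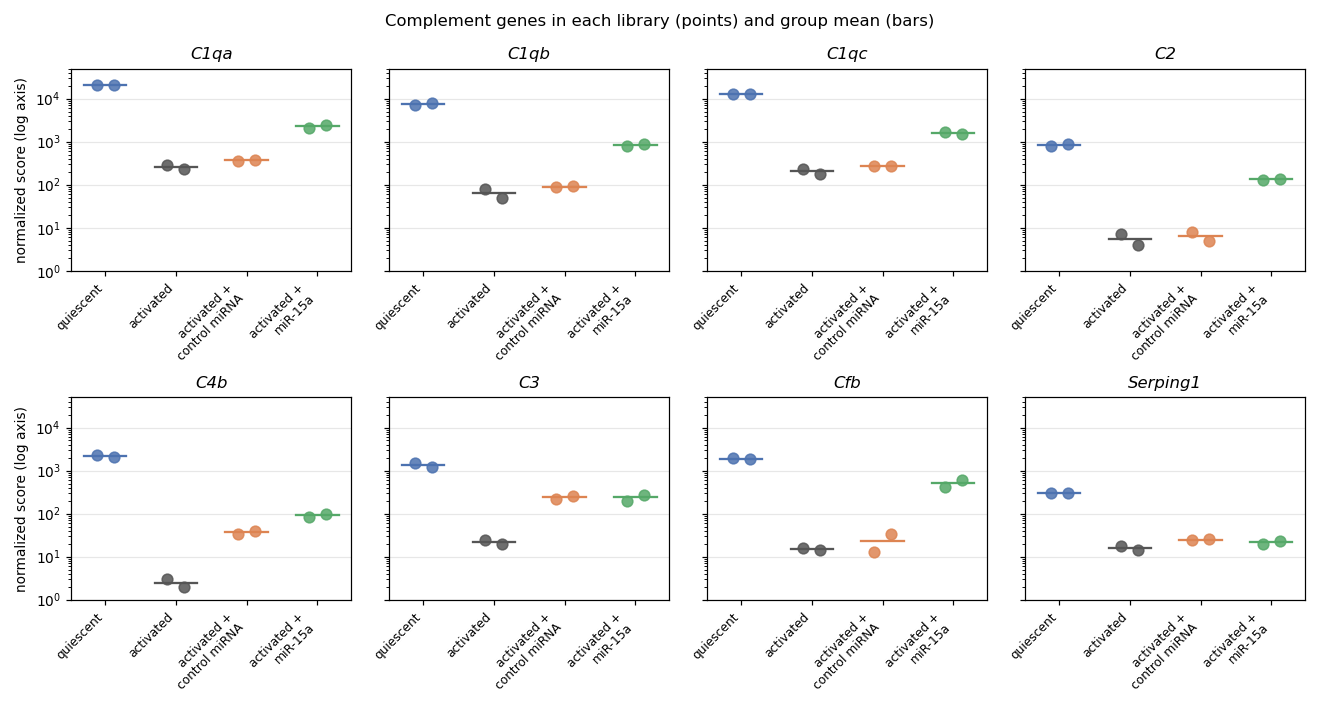
Normalized score of each complement gene (log axis) in the 4 groups; points are the 2 libraries of a group and bars their mean. C2 is at 128 and 139 with miR-15a against 8 and 5 with the control microRNA, C3 is at 200 to 274 with either microRNA against 24 and 20 without, and Serping1 lies between 14 and 25 in all activated groups.

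The 3 chains are assembled together into C1q, so their levels were also set side by side per length, as score per 1000 bases of the longest coding transcript. In quiescent cells this was 19715 for C1qa, 6896 for C1qb and 10446 for C1qc. The ratio of C1qa to C1qb was 2.86 in quiescent cells and 2.90 with miR-15a, against 4.35 in activated cells and 4.29 with the control microRNA. The ratio of C1qc to C1qb was 1.51 and 1.75 in those 2 groups and 2.96 and 2.75 in the other two. These ratios are descriptions without a test, and the tied quiescent values make them coarse.

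The next components of the classical pathway, C4b and C2, fell as well. C4b, whose protein is cut by C1s and becomes bound to the target surface, was at 2250 and 2076 in quiescent cells, 3 and 2 in activated cells, 34 and 39 with the control microRNA and 83 and 100 with miR-15a. All 4 groups were apart from each other. It fell by 8.18 from quiescent to activated cells (SE 0.15, adjusted p = 7.3e-09), to 0.116% of its quiescent mean. C2, the protease of the same enzyme, was at 796 and 891 in quiescent cells and at 7 and 4 in activated cells, and fell by 6.35 (SE 0.20, adjusted p = 7.9e-08).

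C3, the component on which the pathways converge, was at 1486 and 1215 in quiescent cells and 24 and 20 in activated cells, a fall to 1.63% of the quiescent mean. Its log2 fold change was -5.65 (SE 0.18, adjusted p = 8.1e-08). Cfb, which encodes factor B, was at 1912 and 1842 against 16 and 14, and fell by 6.56 (SE 0.33, adjusted p = 9.3e-07). Serping1 went from 298 and 296 to 18 and 14 and fell by 3.85 (SE 0.16, adjusted p = 3.1e-07).

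Marker lists moved with these genes, where 34.1% of tested genes were called lower. Of the 18 macrophage markers 17 fell and Cx3cr1 rose, with a median log2 fold change of -5.59, and all 20 endothelial markers fell, with a median of -8.31. All 17 hepatocyte markers fell, with a median of -3.52 and a summed level of 15387 to 18132 in quiescent and 473 to 619 in activated libraries. All 25 interferon response genes fell, with a median of -5.71. The part of macrophage, endothelial and hepatocyte RNA in the lower complement values was not tested.

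The control microRNA, set against activated cells with no microRNA named, shows what the comparison with miR-15a rests on. C3 and C4b rose with it and C1qa rose slightly, while C2 and Cfb overlapped the activated libraries. Of the 8 members 3 rose and none fell, where 7.18% of tested genes were called higher, and their median was 0.50 against -0.035 over all genes tested. With median-ratio scaling the genes called in this comparison were 73.5% higher ones, against 52.1% as deposited.

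C3 rose from 24 and 20 to 220 and 258 with the control microRNA (mean 22 ± 2.83 to 239 ± 26.9, SD, n = 2 each). The log2 fold change was 3.18 ± 0.18 SE (adjusted p = 2.1e-04, limma). C4b rose from 3 and 2 to 34 and 39, by 2.47 ± 0.15 (adjusted p = 2.8e-04). C1qa, the third member called, was higher by 0.51 ± 0.12 (adjusted p = 0.033). That call was lost without either quiescent library, either control library or activated library b (adjusted p 0.062 to 0.14), with a constant variance prior (0.058) and with only the 2 groups in the fit (0.12).

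The other chains did not pass, C1qb at 0.53 ± 0.19 (adjusted p = 0.099) and C1qc at 0.42 ± 0.12 (adjusted p = 0.056). Without activated library a both passed, C1qb at 0.85 and C1qc at 0.59, and 5 of the 8 members were called. C1qc also passed with median-ratio scaling (adjusted p = 0.033) and with a replicate block (0.049). Serping1, at 24 and 25 against 18 and 14, was higher by 0.50 ± 0.16 and did not pass (adjusted p = 0.077), though it did with a constant variance prior (0.040).

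Cfb was at 13 in control library a and 34 in control library b, on either side of the activated values of 16 and 14. Its log2 fold change was 0.41 ± 0.33 (adjusted p = 0.44). Without control library a it was 0.97 and passed (adjusted p = 0.032), and without control library b it was -0.15 and did not. Hepatocyte markers summed to 343 in control library a and 1710 in control library b, and the part of hepatocyte RNA in the higher Cfb value was not tested. C2, at 8 and 5 against 7 and 4, differed by 0.13 ± 0.20 (adjusted p = 0.69).

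Of 18 macrophage markers limma called none, with 3 at an unadjusted p under 0.05 (Lyz2 at 0.40, Slc40a1 at 0.70 and Aif1 at -0.63), and their median was 0.15. Their summed level was 2093 to 2407 with the control microRNA against 1779 to 1903 in activated cells. Of 20 endothelial markers 6 rose, with a median of 1.04, where 7.18% of tested genes were called higher. In the interferon response list 12 of the 25 genes rose, at a median of 0.87. Limma called no hepatocyte marker of 17, and 0 were at an unadjusted p under 0.05. In the control microRNA group the values of Xist were 3373 and 5027 and those of Ddx3y 1282 and 1268, so these libraries also differed from the activated ones in the animals behind them. The part of that difference, and of the macrophage and endothelial RNA, in the values of C3 and C4b was not tested.

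**Figure D2:**
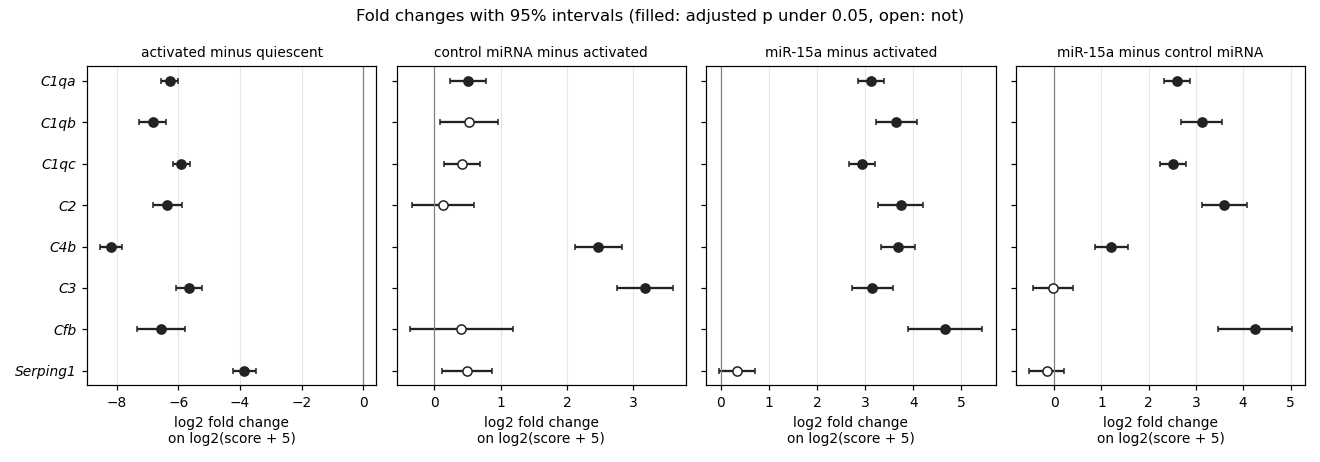
Log2 fold changes on log2(score + 5) for the 8 complement genes in 4 comparisons, with 95% intervals; filled points passed an adjusted p of 0.05 and open points did not. C3 is at 3.18 for the control microRNA and at -0.025 for miR-15a against the control, while Cfb is at 0.41 and 4.25.

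Activated cells given miR-15a were set against those given the control microRNA. These groups also differed in macrophage markers, with sums of 12238 to 13802 against 2093 to 2407. Endothelial markers summed to 13737 to 13869 against 2053 to 2614. Ddx3y was at 1046 and 1006 against 1282 and 1268, and Xist at 3373 in both libraries against 3373 and 5027. The parts of microRNA, cell makeup and animals in this comparison were not tested. The C1q chains, C2 and Cfb were several-fold higher with miR-15a and C4b moderately so, while C3 and Serping1 did not pass. Of the 8 members 6 rose and none fell, where 14.4% of tested genes were called higher. The members' median was 2.56 against -0.068 over all genes tested. These 6 calls held without any 1 of the 8 libraries. The genes called were 48.3% higher ones as deposited and 59.3% with median-ratio scaling.

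Cfb had the largest fold change, from 13 and 34 with the control microRNA to 422 and 592 with miR-15a. That was a log2 fold change of 4.25 ± 0.33 SE (adjusted p = 1.2e-04, limma), and 3.69 to 4.81 with 1 library left out. C2 rose from 8 and 5 to 128 and 139, by 3.60 ± 0.20 (adjusted p = 2.3e-05). The 2 genes encode homologous proteases and are neighbours on chromosome 17. With miR-15a Cfb stood at 27% of its quiescent mean and C2 at 15.8%, against 1.25% and 0.771% with the control microRNA.

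The C1q chains all rose, and whether they differed from each other was not tested. C1qb rose by 3.13 ± 0.19 (adjusted p = 3.1e-05), C1qa by 2.61 ± 0.12 (adjusted p = 8.4e-06) and C1qc by 2.52 ± 0.12 (adjusted p = 1.0e-05). With miR-15a the chains stood at 11.2% (C1qa), 11% (C1qb) and 12.7% (C1qc) of their quiescent means. C4b rose less, from 34 and 39 to 83 and 100, by 1.21 ± 0.15 (adjusted p = 0.0012).

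C3 was at 200 and 274 with miR-15a and 220 and 258 with the control microRNA, groups that overlapped. The log2 difference was -0.025 with a 95% interval of -0.44 to 0.40 (adjusted p = 0.93). Its sign turned under 3 alternatives, with values up to 0.20. Serping1 was at 20 and 23 against 24 and 25, a difference of -0.16 ± 0.16 (adjusted p = 0.50). The 95% interval for Serping1 was -0.53 to 0.22, and neither gene was shown to be equal in the groups.

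Against activated cells with no microRNA named, which were also the reference for the control microRNA, 7 of the 8 members rose with miR-15a, where 16.8% of tested genes were called higher. Their median was 3.40 against -0.096 over all genes tested. Cfb rose by 4.66 ± 0.33, C2 by 3.74 ± 0.20, C4b by 3.68 ± 0.15, C1qb by 3.65 ± 0.19, C3 by 3.15 ± 0.18, C1qa by 3.12 ± 0.12 and C1qc by 2.93 ± 0.12. The adjusted p of these 7 lay between 3.0e-06 for C1qa and 5.3e-05 for Cfb. Serping1 was higher by 0.34 ± 0.16 and did not pass (adjusted p = 0.13). The miR-15a libraries held 3373 of Xist each and 1046 and 1006 of Ddx3y, apart from the activated libraries in both and from the control libraries in Ddx3y. The part of that difference in the values with miR-15a was not tested.

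Macrophage, endothelial and interferon genes moved with the members that rose with miR-15a over the control microRNA. In that comparison 14.4% of tested genes were called higher. Of 18 macrophage markers 17 rose and Cx3cr1 fell, with a median of 2.66, and of 20 endothelial markers 18 rose and 1 fell, with a median of 3.64. The interferon response list rose in full, 25 of 25, at a median of 2.56. Of 16 stellate and mesenchymal markers 5 fell, where 15.4% of tested genes were called lower, with a median of -0.087. Only 1 of them rose, Reln, at 67 and 82 with miR-15a against 11 and 6 with the control microRNA. Of 17 hepatocyte markers 2 rose, near the share over all tested genes, with a median of 0.68. Their sum was 1823 to 2540 with miR-15a and 343 to 1710 with the control microRNA, whose libraries lay far apart. Hepatocyte RNA was thus not shown to be equal in the groups. The part of all these lists in the higher complement values was not tested.

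**Figure D3:**
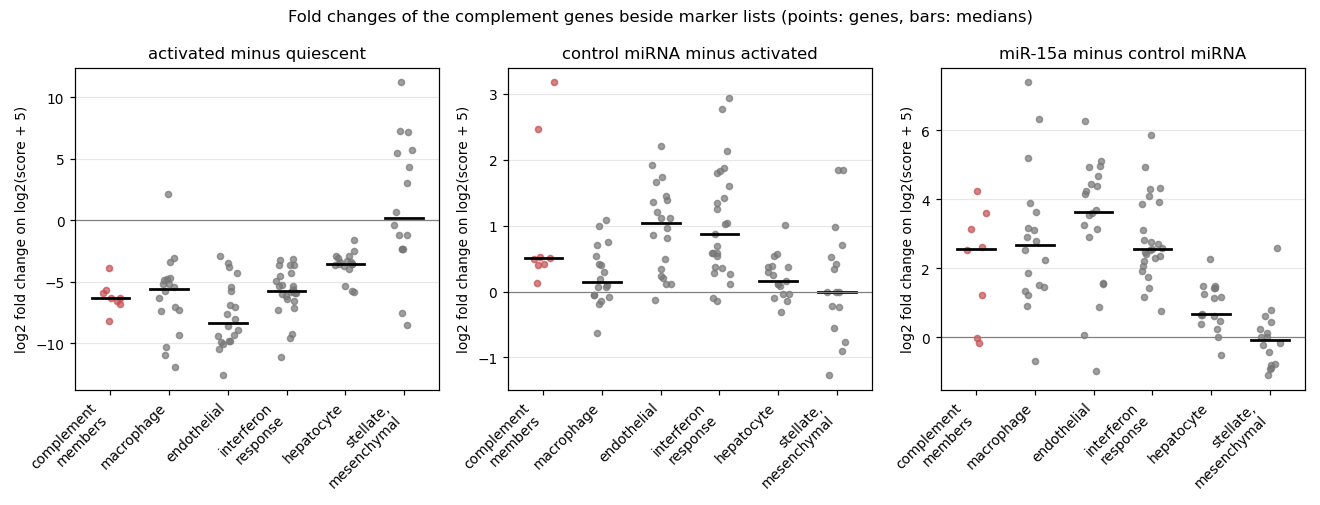
Log2 fold changes on log2(score + 5) of the 8 complement genes (red) beside 5 lists of marker or response genes (grey), 1 point a gene, bars at medians, in 3 comparisons. For miR-15a against the control the medians are 2.56 for the complement genes, 2.66 for macrophage markers and 2.56 for interferon response genes.

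Set against quiescent cells, all 8 members were called lower with miR-15a, where 34.4% of tested genes were, and all 8 with the control microRNA, where 33% were. With miR-15a the log2 fold changes ran from -1.90 ± 0.33 for Cfb to -4.49 ± 0.15 for C4b, with a median of -3.07 against 0.037 over all genes tested. With the control microRNA they ran from -2.47 ± 0.18 for C3 to -6.30 ± 0.19 for C1qb, with a median of -5.74 against 0.15. C3 thus stood at 17.5% and 17.7% of its quiescent mean with the 2 microRNAs, and Serping1 at 7.24% and 8.25%. These comparisons share the quiescent libraries with each other and with that of activated cells.

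The members did not share one profile over the 8 libraries. The distance used was the root mean square difference of log2(value + 5) after each gene's mean was taken off. C1qa and C1qc were the closest pair, at 0.17, and C1qb and C2 were at 0.27. The farthest pair was Cfb and Serping1 at 1.89. C3 was at least 1.13 from every other member.

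Among 10732 other genes the nearest to C1qa were Treml4 (0.12) and Iigp1 (0.14), an interferon-inducible GTPase. C1qb was nearest to Iigp1 (0.18) and Slc40a1 (0.20), an iron exporter on the macrophage list, with Tek of the endothelial list at 0.24. C1qc was nearest to Tap1 (0.19), a peptide transporter for antigen presentation. The nearest to C2 was Itgb2 (0.14), an integrin chain of leukocytes. The nearest to Cfb was Fam174b (0.27), followed by Fcgr2b (0.28), an antibody receptor on the endothelial list. C3 and C4b had no gene within 0.50, and Isg15 and Ccl4 were their nearest. Serping1 was nearest to Il4ra (0.13), a cytokine receptor chain. With 8 libraries in 4 groups, many genes share such profiles.

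Of 52 other complement symbols, 28 had a row. From quiescent to activated cells 21 of the 28 fell and 5 rose, with a median of -1.92. Over all tested genes 79.5% were called in either direction there. With miR-15a over the control 12 rose and 5 fell, against 29.9% called over all genes, with a median of 0.27; without miR-15a library b 3 fell. With the control microRNA over activated cells 7 rose and 2 fell, against 13.8%, with a median of 0.15. Fewer than 7 rose there whichever 1 of the 8 libraries was left out, and in some of those fits fewer fell.

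Fcna and Cfp were high in quiescent cells and intermediate with miR-15a, as the C1q chains were. Fcna, a ficolin of macrophages that starts the lectin pathway, was at 8202 and 7286 in quiescent cells, 5 and 6 in activated cells, 6 and 9 with the control microRNA and 394 and 502 with miR-15a. It rose by 5.18 ± 0.17 with miR-15a over the control (adjusted p = 2.7e-06). Cfp, properdin, which stabilizes the alternative pathway enzyme, rose from 28 and 24 to 566 and 704, by 4.36 ± 0.13. Colec11, a collectin that is also 1 of the 16 stellate and mesenchymal markers, was at 1208 and 1332 in quiescent cells and 1 and 3 in activated cells. It did not pass between miR-15a and the control (8 and 9 against 6 and 2). Its log2 fold change there was 0.62, and 0.95 without control library a.

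Of 4 genes of the proteases that act with C1q and their relatives, 3 fell with miR-15a over the control and C1s2 did not pass, where 15.4% of tested genes were called lower. C1s1, which encodes C1s, was at 297 and 267 in quiescent cells, 112 and 139 in activated cells, 533 and 476 with the control microRNA and 314 and 255 with miR-15a. It rose by 1.97 ± 0.14 with the control microRNA over activated cells (adjusted p = 4.7e-04) and fell by 0.82 with miR-15a over the control (SE 0.14, adjusted p = 0.0057). C1ra, its partner C1r, was at 210 and 222, 124 and 124, 228 and 228, and 149 and 142 in the same groups, and fell by 0.63 with miR-15a over the control. C1s1 and C1s2, like C1ra and C1rb, are near-identical copies, so reads may be split between them.

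Cd55, which breaks up the C3-splitting enzymes on cell surfaces, went from 68 and 56 to 665 and 774, a rise of 3.44 ± 0.14 (adjusted p = 6.0e-06) against quiescent values of 920 and 930. Of the 5 membrane regulators Cd55 rose, Cd46 fell by 0.48 and 3 did not pass, where 29.9% of tested genes were called in either direction. The call of Cd46 was lost without either miR-15a library, without control library b and with only the 2 groups in the fit (adjusted p 0.071 to 0.12).

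Most receptors for complement fragments rose with miR-15a. Of 8 genes 7 rose and none fell over the control, where 14.4% of tested genes were called higher, with a median of 2.13. Over activated cells 7 rose, where 16.8% were called higher, with C1qbp among them and Itgax not passing. C3ar1, the receptor for C3a, was at 74 and 98 with the control microRNA and 426 and 362 with miR-15a, a rise of 2.14 ± 0.14 (adjusted p = 4.6e-05). Vsig4, a C3b receptor of Kupffer cells, went from 58 and 54 to 432 and 382, and Itgb2 from 30 and 24 to 316 and 348. C1qbp, a C1q-binding protein of mitochondria, did not pass over the control, except without control library b (0.61, adjusted p = 0.047). Several of these receptors are macrophage genes themselves. Of the 18 macrophage markers, none of them a complement gene, 17 rose in the same libraries and Cx3cr1 fell, as given above. The part of macrophage RNA in the receptor values was not tested.

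**Figure D4:**
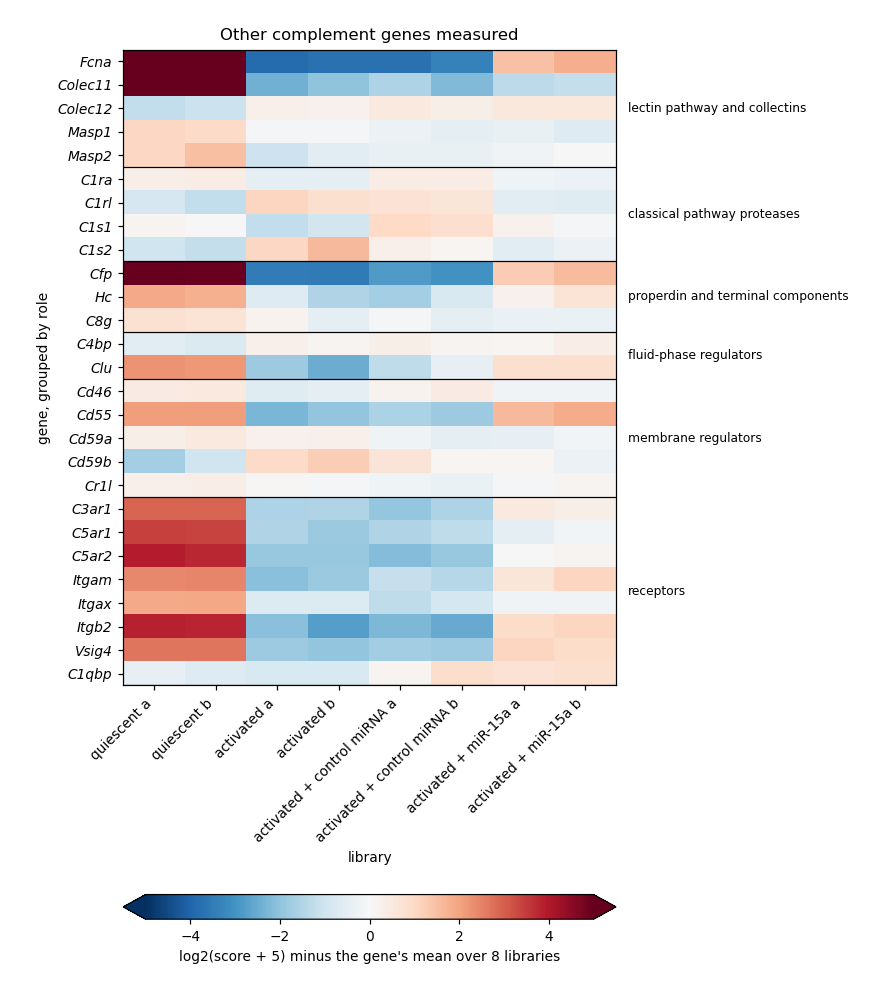
Heat map of 27 other complement genes (rows, grouped by role) in the 8 libraries (columns); colour is log2(score + 5) minus the gene's mean over the libraries, cut at 5 in either direction. Receptors other than C1qbp, and Fcna and Cfp, are high in quiescent libraries and intermediate with miR-15a, while C1s1 is highest with the control microRNA at 533 and 476.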

How the data were processed

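RNA was measured in 8 libraries of mouse hepatic stellate cells in 4 groups of 2, taken from the sample titles. Per the labels' protocols, total RNA was extracted with TRIzol and sequenced as TruSeq libraries from one end. Tools listed in the submitters' processing notes are STAR, featureCounts and Subread, on build mm10, with no versions or roles. The deposited values were treated as a normalized score: each library holds one shared set of 910 whole numbers, with 10 genes at the maximum of 125636, as quantile normalization with rounding would leave, a step neither labels nor header record. Depth is therefore unknown, and no count test was used.

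limma 3.58.1 (R 4.3.3) was run on log2(value + 5) for the 13150 genes that reached 10 in 2 or more libraries. The fit had 4 group means, 4 residual degrees of freedom and a trended variance prior, with Benjamini-Hochberg adjustment over all genes tested. Values after ± are SD beside means and SE beside fold changes. The procedure was tested on simulated data with 200 changed genes and independent noise. Those data lacked the shared values and the many changed genes seen here, so that test does not measure the error rate in these data. Members, gene lists, pseudocount and filter were chosen with earlier results of these data known, so no list was tested as a set. A few single results are not reported here. All members were named, and other complement genes with a group mean of at least 50. Xist, Ddx3y, Gm20547, Cx3cr1, Lyz2, Slc40a1, Aif1, Eng, Ptprb, Stab2, Reln, Col1a2 and Acta2 were named after their values or positions were seen. Likeness was sought among tested genes with a group mean of at least 50, unnamed gene models left out. Promoters, microRNAs and 3′ UTRs came from RefSeq (GRCm38.p6) and GENCODE M21. Alternatives covered pseudocounts, filters, scaling, variance prior, samples in the fit, a replicate block and each library left out.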

Additional observations from a re-analysis of the deposited data

How the results depend on the processing

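The 8 members kept their calls and directions under all 16 alternatives in the comparisons of activated cells and of either microRNA with quiescent cells and of miR-15a with activated cells. For miR-15a against the control the 6 calls did not move, and C3, not called, turned sign to 0.036 with median-ratio scaling and ranged from -0.25 to 0.20 with 1 library left out. For the control against activated cells, leaving out 1 library gave -0.074 to 0.34 for C2, -0.15 to 0.97 for Cfb and 2 to 5 members called. With only the 2 groups in the fit, which has fewer libraries, genes called went from 3926 to 2093 for miR-15a against the control and from 1813 to 276 for the control against activated cells. With 1 library left out they ranged from 2381 to 3691 and from 503 to 1683, and from 2655 to 5139 for miR-15a against activated cells. The lowest counts came without miR-15a library b, activated library b and activated library b, and the cause was not tested. Among other complement genes, a set of alternatives added after seeing the data, C1qbp for miR-15a against the control ranged from -0.12 to 0.61. Median-ratio scaling shifted the median of all genes by -0.27 for activated against quiescent cells and 0.14 for miR-15a against activated cells, and the share of higher genes among those called went from 57.1% to 46.9% and from 43.7% to 65.4%. A replicate block on the letters a and b gave 3776 genes called for miR-15a against the control and 4 members for the control against activated cells, with C1qc added. Libraries of one letter did not deviate together (correlations -0.067 to 0.087), so the letters were not taken as pairs. Within the activated pair, though, all 8 members were lower in library b than in library a. Their log2 differences ran from -0.14 for Cfb to -0.65 for C1qb. The part of this in the small differences between the control and activated cells was not tested. The scores carry no depth, so low values such as C4b at 3 and 2 have an unknown error.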

Other observations

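Acute phase and inflammatory genes gave a further reference for C3 and Cfb, which such signals are known to induce in liver. Of 21 listed genes 17 had a row and 15 were tested. With miR-15a over the control 7 rose and none fell, where 14.4% of tested genes were called higher, with a median of 0.72. Those that rose were Ccl2, Cxcl1, Icam1, Il1b, Nfkbia, Tnf and Tnfaip3. Hp, Orm1, Stat3, Socs3, Cebpb, Cebpd, Nfkb2 and Il6 did not pass, and Saa3 and Lcn2 were not tested. With the control microRNA over activated cells 5 rose and none fell, where 7.18% were called higher, with a median of 0.37. Cxcl1, a neutrophil chemokine, was at 28 in both control libraries and 796 and 936 with miR-15a, and Ccl2, a monocyte chemokine, at 414 and 444 against 6288 and 6462. Cebpb, a factor of the acute phase response, was at 238 and 280 in activated cells, 418 and 438 with the control microRNA and 476 and 359 with miR-15a. Il6, the cytokine that drives that response, was at 768 and 700, 613 and 685, and 630 and 648 in the same groups. Cxcl1, Ccl2, Cebpb and Il6 were chosen after their values were seen.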
